A study of Gallus gallus with 12 samples.

Results

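Hens that had received semen in either form were taken as a single exposed group and set against hens that had received none. The exposed group held 8 of the 12 arrays of the series, namely all arrays of the 4 naturally mated hens and the 4 hens infused with seminal fluid (SF) freed of sperm, and the 4 arrays of control hens were the other side of the comparison. All birds were White Leghorns, a laying breed, and RNA came from the utero-vaginal junction (UVJ), dissected 24 h after mating or infusion, with 1 hen on each array. Each mated hen had been paired with a single male, and the infused fluid was semen of males from the mating group from which sperm had been spun out, delivered into the cloaca. Control hens received no male and no infusion, so that sperm, fluid, the act of mating and the handling of an infusion cannot be told apart in the pooled comparison. Both treatments carried the same weight, and a positive difference means a higher level in exposed hens.

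The UVJ lies between the shell gland and the vagina. Its mucosal folds hold the sperm storage tubules, blind tubes lined by columnar cells in which a hen keeps living sperm between matings, beneath a ciliated surface epithelium. Semen brings foreign cells and proteins into this tissue, and the seminal fluid of birds and mammals is known to act on immune genes of the female tract. The pooled comparison asked which transcripts differ once semen of either kind has been met, and the comparison of mated with SF-infused hens asked which of those differences the exposures do not share.

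Each array gave a value for 37374 features. Median intensity lay between 1077 and 1102, and 94.5% to 96.0% of features were brighter than the random-sequence control of their array, whose level was 3.81 to 3.95 on the log2 scale. Mated replicate 4 stood apart from the other exposed arrays in several gene lists, and mated replicate 3 in axonemal and ciliary genes. Control replicate 3 was at an end of the range of its group in several lists, as given beside those lists. Mated replicate 3 had the smallest weight (0.40) when limma weighted the arrays by their fit. Markers of the neighbouring segments were present in every sample. The summed tissue score (mean level of stratified squamous markers less that of eggshell gland markers) ran from -0.95 in mated replicate 3 to 1.01 in SF replicate 3 over the exposed arrays and from -1.54 in replicate 3 to 0.10 in replicate 1 over the controls. It averaged 0.28 ± 0.66 in exposed hens and -0.56 ± 0.78 in control hens (SD, n = 8 and 4), so the groups overlapped but were not balanced. All 12 arrays lay on a single slide with the control, mated and SF arrays in separate blocks of positions, so that place on the slide and treatment cannot be told apart.

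Few transcripts separated exposed from control hens on every array, and none did so after correction over the whole array. The clearest were lower, NFYA, the regulatory subunit of the CCAAT-box factor NF-Y, at -0.995 (SE 0.14) and NMUR1, which binds neuromedin U, at -1.43 (SE 0.25), on the log2 scale with standard errors (SE) from limma. Of the 37374 features 0 passed an adjusted p of 0.05 (0.0%), the smallest adjusted p being 0.683 for NFYA with limma and Benjamini-Hochberg adjustment. At an unadjusted p under 0.05 limma counted 1380 features (3.69%), with 840 higher (2.25%) and 540 lower (1.44%) in exposed hens. Without any difference such a threshold passes 0.05 of features, more than this share or that of genes below. The exposed and control arrays did not overlap for 85 features (0.227%), of which 60 were higher and 25 lower. Some features separate in this way without any effect, and their expected number was not computed, so separation alone does not mark a gene as differing. Among 10805 characterised genes, each represented by its brightest feature, 339 passed the unadjusted threshold (3.14%), 167 of them higher (1.55%) and 172 lower (1.59%), and 27 did not overlap (0.25%), 15 higher and 12 lower. The 339 genes differed by a median of 0.44 in size, and 13 were higher and 23 lower by more than 1. Without mated replicate 3 the number of genes was 985, without control replicate 4 it was 563 and without SF replicate 1 it was 540. With the tissue score in the model 561 genes passed, 75 of the 339 among them, and all 339 kept their direction.

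**Figure D1:**
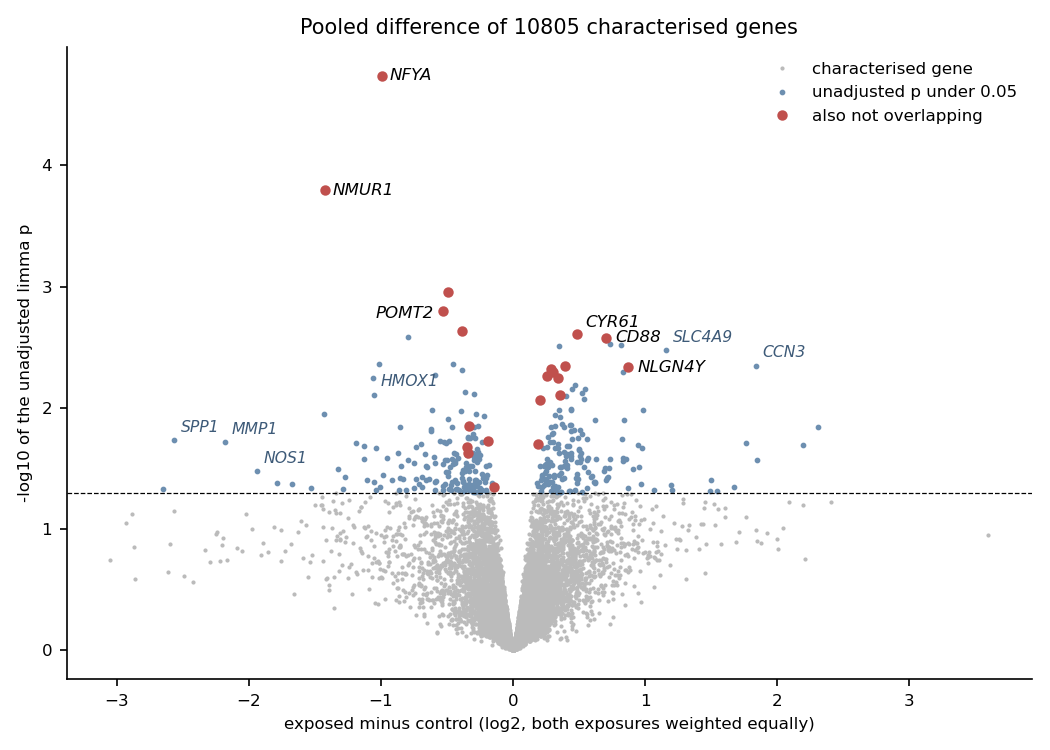
Difference between exposed and control hens (x axis, log2, mated and SF weighted equally) against the unadjusted limma p (y axis, as -log10) for 10805 characterised genes, with a dashed line at the unadjusted threshold. NFYA and NMUR1 stand above the other genes on the y axis, while genes with larger differences such as SPP1 (-2.56) lie near the line.

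NFYA and NMUR1 gave the widest gaps of the 21 genes chosen because their groups did not overlap. NFYA lay at 9.87, 9.97 and 10.33 (lowest, median and highest) on the 8 exposed arrays, against 10.89, 11.04, 11.46 and 10.72 in control hens. The highest exposed array was 0.38 below the lowest control, and the groups averaged 10.03 ± 0.16 in exposed and 11.03 ± 0.32 in control hens (SD, n = 8 and 4). The unadjusted limma p was 1.83e-05, and the difference was -1.02 in mated and -0.97 in SF-infused hens against the same controls. NFYA joins NFYB and NFYC into a trimer that binds CCAAT boxes in many promoters. NFYB was at 0.15 (SE 0.09) and did not pass, and of the 9 measured genes of a list of NF-Y subunits and other CCAAT-binding factors NFYA alone passed.

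NMUR1 lay at 5.85, 6.30 and 6.71 on the exposed arrays, against 6.87, 7.61, 8.47 and 7.78 in control hens. The gap was 0.16, and the controls spread more widely (SD 0.66, n = 4) than the exposed arrays (SD 0.29, n = 8). The unadjusted limma p was 0.00016 (adjusted p = 0.951), and the difference was -1.31 in mated and -1.54 in SF-infused hens. Neuromedin U acts on smooth muscle and on innate lymphoid cells in mammals. Of 71 neuropeptides, peptide hormones and receptors measured, NMUR1 was the 1 gene past the unadjusted threshold.

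The other lower genes with separate groups differed by less. POMT2, which starts O-mannosylation of proteins in the endoplasmic reticulum, lay at 9.38, 9.65 and 9.86 in exposed hens, against 10.27, 9.90, 10.20 and 10.27 in controls, a difference of -0.53 (SE 0.13). SEL1L, a scaffold of the machinery that retrieves misfolded proteins from that compartment, lay at 11.14, 11.46 and 11.71 in exposed hens, against 11.81, 11.87, 11.83 and 11.78 in controls (-0.39, SE 0.10). YIPF5, a membrane protein of the early secretory pathway, differed by -0.33 (SE 0.11), with control replicate 1 at 12.17 well above the other controls at 11.62 to 11.67 and all exposed arrays at or below 11.58. The deubiquitinase USP38 differed by -0.19 (SE 0.07).

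The remaining lower genes were the inward-rectifier potassium channel KCNJ13 at -0.34 (SE 0.13), CCDC48 at -0.35 (SE 0.13) and PPP1CB, a catalytic subunit of protein phosphatase 1, at -0.14 (SE 0.06). CCDC48 had 2 further features, at -0.32 and -0.36. PPP1CB lost the threshold in all 12 fits that left out an array, KCNJ13 without control replicate 1 or 4 and CCDC48 without control replicate 3.

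Of the 11 higher genes with separate groups, CD40LG encodes a costimulatory ligand. CD88 is listed on the array as CD80, the name of a costimulatory ligand of antigen-presenting cells. Which gene its probes measure was not tested. CD88 lay at 9.95, 10.34 and 10.96 in exposed hens, against 9.65, 9.71, 9.87 and 9.60 in controls, a difference of 0.71 (SE 0.18). CD40LG, the ligand by which activated T cells stimulate CD40-bearing cells, lay at 6.79, 6.91 and 7.06 in exposed hens, against 6.77, 6.44, 6.58 and 6.66 in controls (0.30, SE 0.09). CYR61, a matricellular protein induced by growth factors, lay at 11.24, 11.52 and 11.78 in exposed hens, against 11.08, 10.73, 11.24 and 11.19 in controls (0.49, SE 0.12), and mated replicate 3 exceeded control replicate 3 by 0.001.

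The largest difference among the higher genes with separate groups was that of NLGN4Y (NLGN4X on the array), a neuroligin of cell contacts, which lay at 7.86, 8.36 and 9.29 in exposed hens, against 7.48, 7.32, 7.70 and 7.84 in controls (0.87, SE 0.25). SLC25A36, a mitochondrial carrier of pyrimidine nucleotides, lay at 12.37, 12.48 and 12.62 in exposed hens, against 11.75, 12.33, 12.03 and 12.26 in controls (0.40, SE 0.11). GART, which catalyses steps of purine synthesis, differed by 0.36 (SE 0.11), its control replicate 1 at 10.73 lying below the other controls at 11.11 to 11.12. ETFA, which passes electrons from fatty acid oxidation to the respiratory chain, differed by 0.25 (SE 0.07). The voltage-gated potassium channel KCNC1, which at 5.36 in exposed and 5.03 in control hens was a dim feature, differed by 0.34 (SE 0.10), the centrosomal protein AZI1 by 0.21 (SE 0.06) and the scaffold STRN by 0.19 (SE 0.07). GRID2IP, a synaptic scaffold, was at 0.29 (SE 0.08), but its second feature was at -0.18 (SE 0.17) and did not pass. Unadjusted limma values of p for these 11 higher genes ran from 0.00245 for CYR61 to 0.0199 for STRN, and STRN lost the threshold without control replicate 1.

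**Figure D2:**
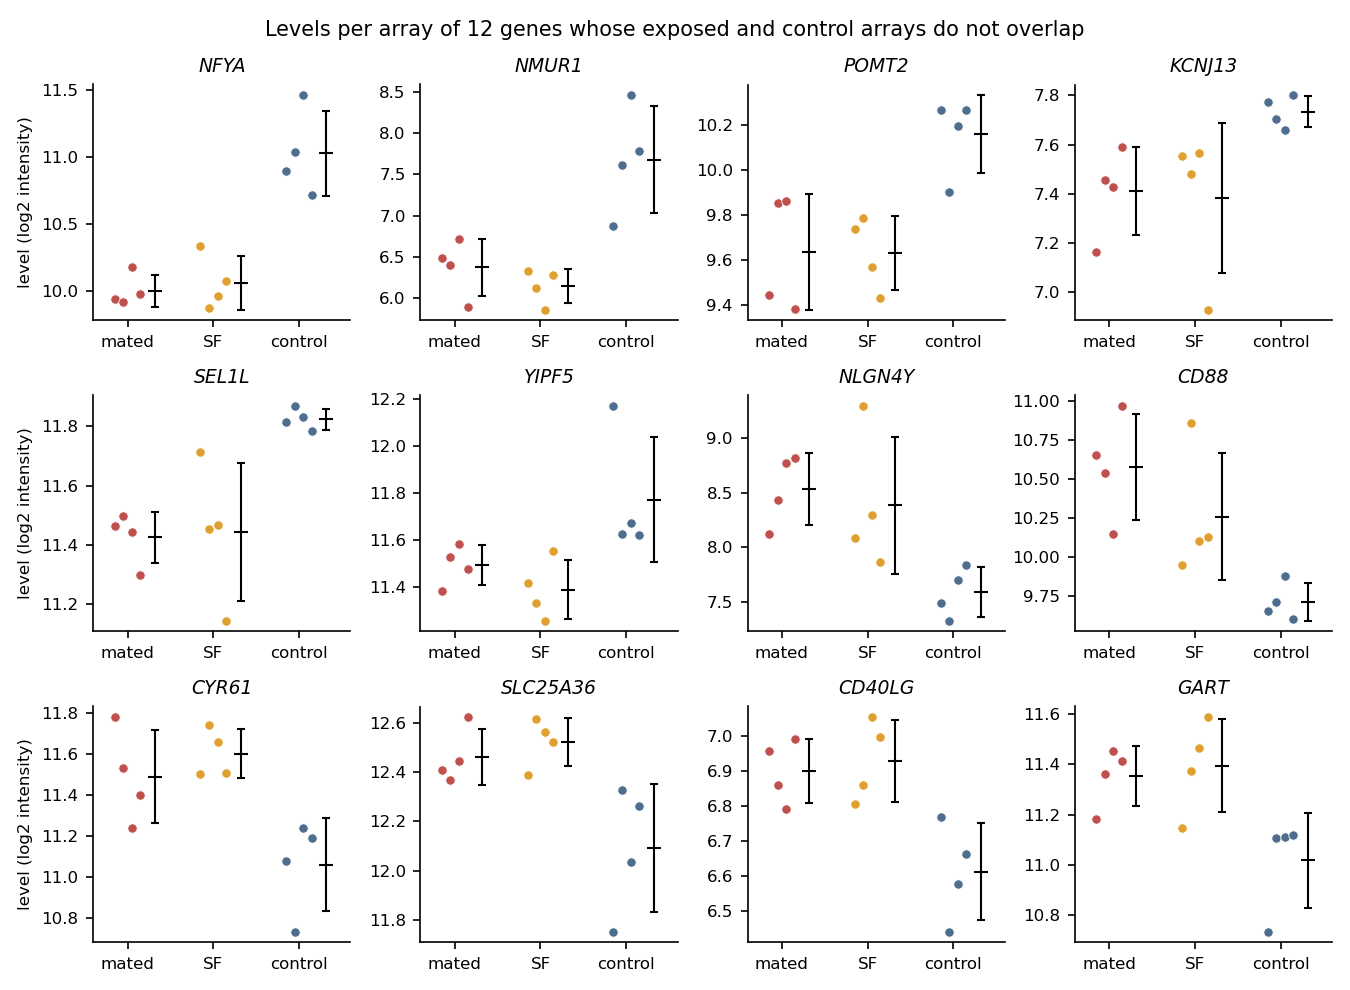
Levels (y axis, log2 intensity, a different range in each panel) of 12 genes in mated, SF-infused and control hens, each point 1 array and each bar the mean ± SD of 4. In NFYA the 8 exposed arrays lie between 9.87 and 10.33 and the controls between 10.72 and 11.46, whereas in CYR61 the groups nearly touch.

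These 21 genes kept their direction in each alternative fit that held them. Leaving out an array could not have turned a direction, because the genes were chosen for groups that did not overlap. Past the unadjusted threshold 20 of them stayed without mated replicate 3 and without mated replicate 4, PPP1CB being the exception. With the tissue score in the model 18 of the 21 passed, NFYA at -0.78 and NMUR1 at -0.998, and CCDC48, PPP1CB and USP38 did not. Mated and SF-infused hens differed in 1 of the 21 at an unadjusted limma p under 0.05, GRID2IP, which was 0.23 higher in mated hens (95% interval 0.02 to 0.44). Over all characterised genes 3.08% passed in mated versus SF. The choice for separate groups used the mated and SF values themselves, so this count does not show that both exposures share the differences. For NFYA the interval of mated minus SF was -0.41 to 0.29, and for NMUR1 it was -0.42 to 0.87.

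The difference between mated and SF-infused hens is uncorrelated by design with the pooled difference, although both use the same spread estimate for a gene, so it was tested among the genes that passed. Over all features 0 passed an adjusted p of 0.05 in mated versus SF (smallest adjusted p = 0.641, limma), and at the unadjusted threshold there were 1756 features (4.7%) and 333 characterised genes (3.08%). Of the 339 genes that passed in exposed versus control, 31 (9.15%) also passed in mated versus SF. A gene whose spread is estimated too low passes both more readily. The share of 9.15% beside 3.08% therefore does not show that the exposures differ in these genes. For 264 of the 339 the 95% interval of mated minus SF lay within 1 of 0 on either side. That bound is wider than the median size of 0.44 of the pooled differences, so the count does not show that both exposures share them. NUDT1, with an interval of 0.36 to 0.83, is among these genes. The share over all characterised genes was not counted. The SF difference from control was larger in size than the mated one for 273 of the 339 genes (80.5%), as it was for 67.3% of all characterised genes.

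Among the genes that passed in both comparisons, the haem oxygenase HMOX1 and the collagenase MMP1 were lower on the SF arrays than on the mated ones. HMOX1, which breaks down haem, lay at 11.69, 12.37, 13.21 and 11.76 in mated and 12.11, 11.13, 10.63 and 10.66 in SF-infused hens, against 12.62, 12.78, 12.93 and 12.68 in controls. The pooled difference was -1.06 (SE 0.33), with mated hens 1.12 above SF-infused hens (95% interval 0.30 to 1.95), and mated replicate 3 lay above every control. MMP1 lay at 10.30, 8.38, 7.89 and 7.53 in mated and 5.93, 4.34, 5.74 and 9.26 in SF-infused hens, against 10.16, 9.72, 8.87 and 9.66 in controls. Its pooled difference was -2.18 (SE 0.80) and mated minus SF was 2.21 (95% interval 0.18 to 4.23). The regulatory subunit of protein kinase A PRKAR2B (pooled -0.46, mated minus SF 0.58) and LEAP2, an antimicrobial peptide of the liver and gut (pooled -0.33, mated minus SF 0.50), were also lower mainly on the SF arrays.

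NUDT1 stood on the other side. This enzyme clears oxidised nucleotides before they reach DNA, and it lay at 11.39, 11.48, 11.29 and 11.21 in mated and 10.92, 10.52, 10.73 and 10.80 in SF-infused hens, against 10.73, 10.79, 10.55 and 10.69 in controls. All mated arrays lay above all others, and mated minus SF was 0.60 (95% interval 0.36 to 0.83). Its pooled difference of 0.35 (SE 0.09) was the mean of 0.65 in mated and 0.05 in SF-infused hens. F2, which encodes prothrombin, was lower in mated hens at -0.83 and at -0.16 in SF-infused hens (mated minus SF -0.67). Higher mainly after SF were PROM2, a protein of membrane protrusions (mated minus SF -0.95), HEXDC, a hexosaminidase (-0.76), CCDC122 (-0.66) and the sialyltransferase ST6GALNAC1 (-0.61). CCDC122 averaged 3.62 in control hens, no higher than the random-sequence control. With the tissue score in the model NUDT1 alone of these 10 genes passed the pooled threshold, at 0.36, and all 10 kept their direction. With 1 mean for all exposed arrays CCDC122, F2, HEXDC, LEAP2, NUDT1 and PROM2 lost it.

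**Figure D3:**
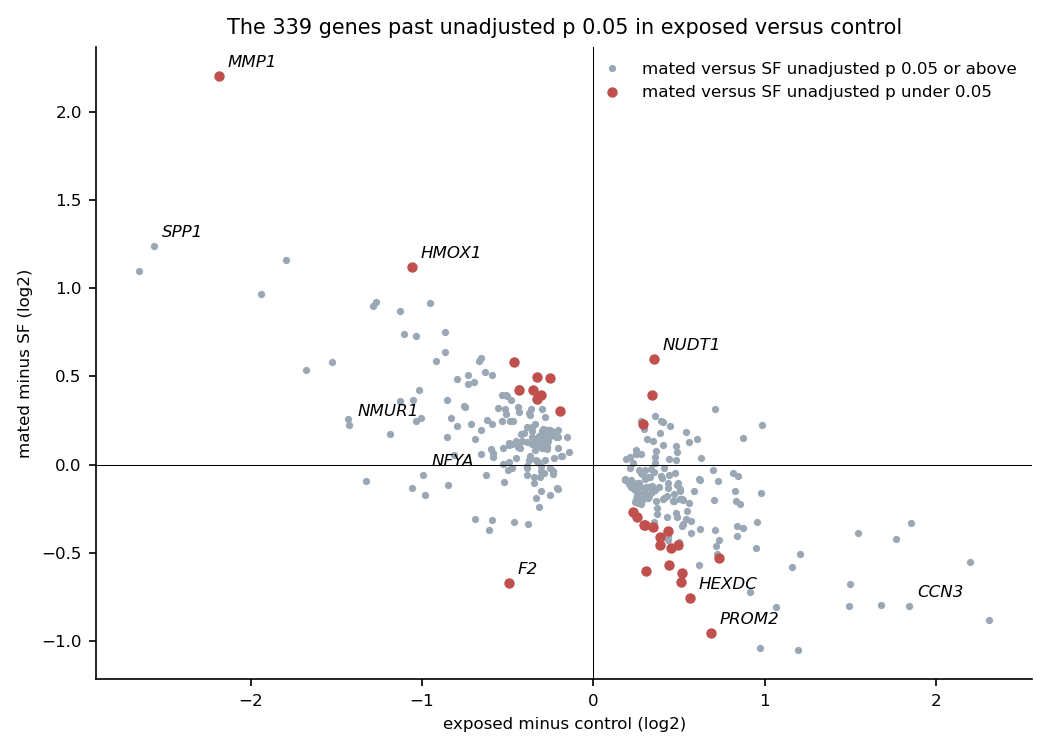
Difference between mated and SF-infused hens (y axis, log2) against the difference between exposed and control hens (x axis, log2) for the 339 genes past the unadjusted threshold in exposed versus control, red where mated versus SF passed too. NFYA and NMUR1 lie near 0 on the y axis, while MMP1 and HMOX1 lie high on the left and PROM2 and HEXDC low on the right.

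Gene lists for pathways and cell types were then counted against the 3.14% of characterised genes that passed. The 36 lists held 1377 distinct measured genes, of which 63 (4.58%) passed, 29 higher and 34 lower, and 10 lists had no member past the threshold. Lists and members were chosen with earlier results of these data known, so a share above 3.14% is no support for a list. With the tissue score in the model 16 of the 63 passed and all 63 kept their direction. Leaving out mated replicate 3 let 985 of the 10805 characterised genes pass, so list counts without that array have a larger background. The threshold held without any 1 array for 15 of the 63, namely CCN3, CCNE2, CD40LG, CD88, CYR61, FGF13, HMOX1, HSPA13, LPL, NFYA, NMUR1, NUDT1, PLK4, SLC4A9 and TBX4, and each of the others lost it without at least 1. In whole tissue fewer cells of a type and less RNA per cell cannot be told apart.

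Of 39 cytokines and chemokines 4 passed and all were higher, with a median over the list of 0.28 against 0.0018 over all characterised genes. Beside CD40LG these were IL19, a cytokine of the interleukin-10 family, at 0.95 (SE 0.35), the eosinophil and B-cell cytokine IL5 at 0.44 (SE 0.17) and, named after its value was seen, the costimulatory ligand TNFSF4 at 0.48 (SE 0.19). IL19 lay at 5.89, 6.45 and 8.02 in exposed hens, against 5.12, 5.69, 5.72 and 6.02 in controls, and 1 control exceeded some exposed arrays. IL5 averaged 4.18 in exposed and 3.74 in control hens, the control level being no higher than the random-sequence control. Of 45 receptors 3 passed and 39 were above 0, with a median of 0.34. They were the gut-homing receptor CCR9 at 0.39 (SE 0.15), IL17RD, an inhibitor of fibroblast growth factor signalling, at 0.95 (SE 0.38) and CCR4, a chemokine receptor of T cells, at 0.87 (SE 0.39). In mated replicate 4 the cytokine list lay 0.88 above the mean of the 12 arrays, while the other exposed arrays ran from -0.30 to 0.16 and the controls from -0.28 to -0.15. Without control replicate 3 the cytokine median was 0.18 and 0 receptors passed. Leaving out mated replicate 3 gave 9 cytokines and 10 receptors past the threshold, all higher. Leaving out mated replicate 4 gave 6 and 2, all higher. Without mated replicate 4 the list medians were 0.13 for cytokines and 0.18 for receptors, and with the tissue score in the model they were 0.02 and -0.11.

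Interferon response genes had the highest median of the 36 lists, at 0.47 over 28 genes, and 27 of the 28 were above 0, but 0 passed the unadjusted limma threshold. The medians were 0.28 in mated and 0.67 in SF-infused hens, set against the same controls. IFIT5, an antiviral RNA-binding protein, lay at 10.71, 10.02, 9.13 and 13.77 in mated and 12.12, 12.26, 12.73 and 12.65 in SF-infused hens, against 8.89, 10.003, 10.19 and 11.91 in controls, and its pooled difference was 1.43 (SE 0.77). IRF9 (IRF10 on the array), a transcription factor of the interferon response, was at 0.68 (SE 0.31) and the helicase-like ZNFX1 at 0.61 (SE 0.32). The SF arrays lay close together on this list, at 0.25 to 0.61 relative to all arrays, whereas the mated arrays ran from -0.90 in replicate 3 to 1.40 in replicate 4. Control replicates 1, 2 and 3 lay at -0.71, -0.53 and -0.52, but control replicate 4 lay at 0.35, within the range of the SF arrays. The list median was 0.23 without mated replicate 4 and 0.02 with the tissue score in the model. Without mated replicate 3, 8 members were higher and 1 lower past the threshold, and without mated replicate 4, 2 were higher.

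Markers of T lymphocytes, B lymphocytes and macrophages had 0 members past the unadjusted limma threshold. T lymphocyte markers had a median of 0.40, with 29 of 34 above 0, and among them CD3E and CD3D, chains of the T-cell receptor complex, were at 0.43 (SE 0.24) and 0.57 (SE 0.33). Mated replicate 4 was at 1.14 on this list and the other exposed arrays at -0.30 to 0.29, against -0.46 to 0.26 in controls. The T lymphocyte median was 0.18 without mated replicate 4 and 0.28 without control replicate 3. Leaving out mated replicate 3 raised it to 0.52, with 4 of 34 higher past the threshold. With the tissue score in the model it was 0.06, with 21 of 34 above 0. B lymphocyte markers were at a median of 0.09 over 21 genes and at -0.06 with the tissue score in the model. Macrophage and heterophil markers were at 0.08 over 24, with medians of 0.14 in mated and -0.16 in SF-infused hens against the same controls. The pooled median was -0.08 without mated replicate 4, 0.0008 without control replicate 3 and -0.33 with the tissue score in the model. Its sign therefore turned both without mated replicate 4 and with the tissue score. Antigen presentation genes were at 0.15 over 28, with CD88 (CD80 on the array) as the 1 member past the threshold. Their median was 0.03 without mated replicate 4, 0.25 without mated replicate 3 and -0.05 with the tissue score in the model. The part of these cells in the cytokine and receptor values was not tested.

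Of 22 host defence peptides and lysozymes 2 passed and both were lower, LEAP2 and BPIL3, a member of the lipid-binding family of bactericidal proteins, at -2.65 (SE 1.18). BPIL3 ranged from 4.41 to 9.33 in exposed hens, against 5.34, 10.26, 11.61 and 8.08 in controls, so that the groups overlapped widely. It was at -0.25 with the tissue score in the model, but BPIL3 is among the genes of that score. Of 39 complement and coagulation genes F2 passed, of 34 Toll-like receptor and NF-kB genes the cytosolic peptidoglycan sensor NOD1 did at -0.29 (SE 0.13), and of 32 TGF-beta and BMP genes the receptor BMPR2 did at -0.30 (SE 0.14). NOD1 lost the threshold in 9 and BMPR2 in 8 of the 12 fits that left out an array.

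**Figure D4:**
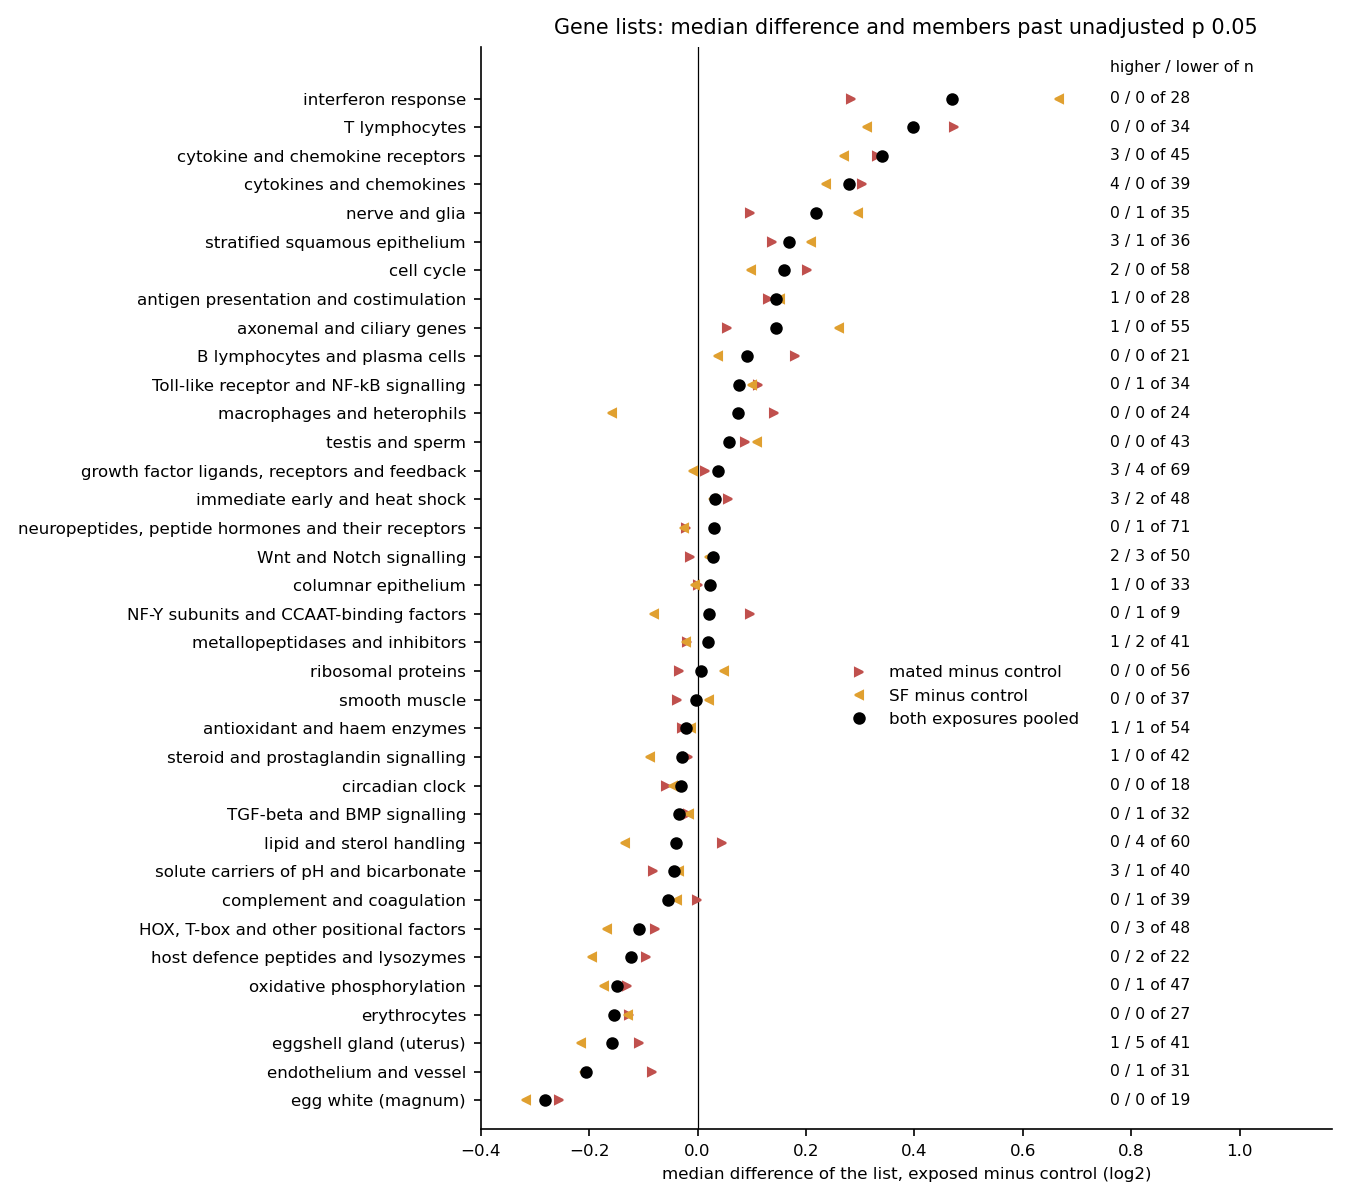
Median difference of each of 36 gene lists (x axis, log2) for both exposures pooled (circles) and for mated and SF-infused hens against the same controls (triangles), with the number of members higher and lower at an unadjusted p under 0.05 out of those measured. Interferon response has the highest pooled median at 0.47 with 0 members past the threshold, and eggshell gland markers have 1 higher and 5 lower members of 41.

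Epithelial lists had medians of opposite sign. Stratified squamous markers, genes of the layered epithelium of the vagina, had 3 of 36 members higher and 1 lower, with a median of 0.17. TP63, the master factor of basal squamous cells, lay at 11.52, 12.69 and 13.99 in exposed hens, against 10.97, 10.50, 10.31 and 13.46 in controls (1.50, SE 0.64). The basal keratins KRT14 and KRT5 were at 1.20 (SE 0.54) and 1.49 (SE 0.67), KRT5 being named after its value was seen, and BNC1, a zinc finger protein of basal keratinocytes, was lower at -0.98 (SE 0.41). Control replicate 4 lay within the range of the exposed arrays in TP63 and KRT14, and both lost the threshold in 7 of the 12 fits that left out an array. Without control replicate 3 the list had 0 members past the threshold, and without mated replicate 4 it had 0 higher and 1 lower. Leaving out mated replicate 3 gave 12 higher and 2 lower. The list median was -0.02 with the tissue score in the model, which is built from this list and the next. Over the list the exposed arrays ran from 9.87 to 10.86 and the controls from 9.76 to 10.74, and 2 of the 36 members were within 1 of the random-sequence control.

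Eggshell gland markers had 5 of 41 members lower and 1 higher, a share of 14.6%, with a median of -0.16. SPP1, or osteopontin, a phosphoprotein of the eggshell matrix, lay at 8.01, 9.92 and 12.97 in exposed hens, against 11.67, 12.67, 14.49 and 11.65 in controls (-2.56, SE 0.93). The calcium release channel ITPR2 was at -0.47 (SE 0.20), and the other lower members, 2 of them named after their values were seen, were BPIL3, CLCN5, a chloride transporter, at -0.34 (SE 0.15) and SLC4A7, a sodium bicarbonate cotransporter, at -0.75 (SE 0.33). The list ran from 10.53 to 11.50 in exposed hens, against 10.66 to 11.98 in controls, control replicate 3 being the highest. Without control replicate 3 the median was -0.10 and 0 members were lower past the threshold, without mated replicate 4 there was 1, without mated replicate 3 there were 10, and with the tissue score in the model there were 0. Egg white genes of the magnum had a median of -0.28 over 19 genes (-0.18 without control replicate 3) and 0 members past the threshold. Columnar epithelium markers were at 0.02 over 33 genes, PROM2 being the 1 that passed.

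**Figure D5:**
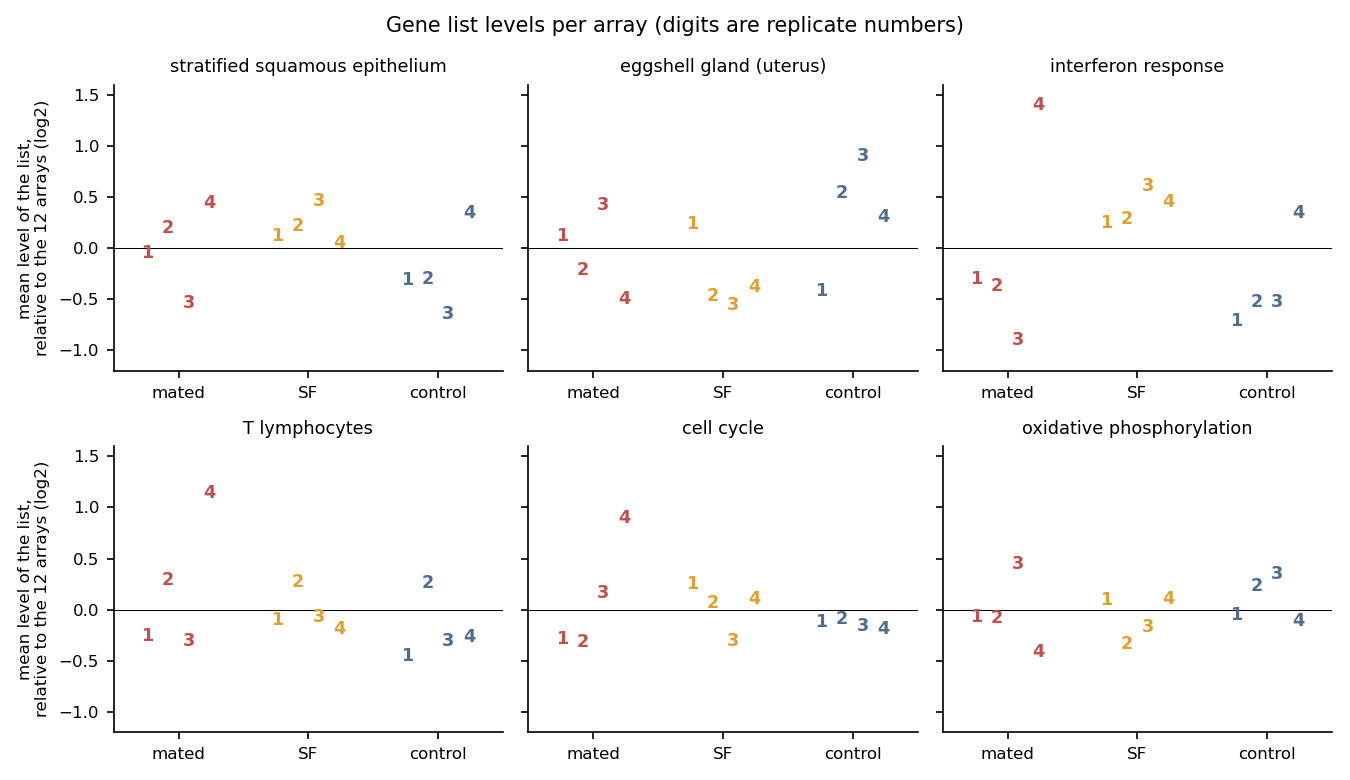
Mean level of 6 gene lists on each array (y axis, log2 relative to the mean of the 12 arrays), digits giving the replicate number in mated, SF-infused and control hens. Mated replicate 4 is highest for interferon response, T lymphocytes and cell cycle, and control replicate 3 is highest for eggshell gland and lowest for stratified squamous markers.

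SLC4A9, an anion exchanger of acid-base handling, was higher, unlike the 5 other shell gland members that passed. It lay at 8.40, 9.56 and 10.69 in exposed hens, against 7.93, 8.37, 8.17 and 8.95 in controls, a difference of 1.16 (SE 0.31). Only mated replicate 1 fell within the range of the controls. The SLC4A9 difference was 1.15 with the tissue score in the model, although SLC4A9 is among the genes of that score. It passed in all 12 fits that left out an array. Of 40 solute carriers of pH and bicarbonate 3 were higher and 1 lower, among them the chloride-bicarbonate exchanger SLC4A3 at 0.36 (SE 0.15) and SLC4A7.

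Of 41 metallopeptidases and inhibitors MMP28 (epilysin) was higher at 0.37 (SE 0.13), while MMP1 and MMP27 were lower, MMP27 at -0.50 (SE 0.20). Lipid and sterol genes had 4 of 60 members lower and 0 higher. The clearest was LPL, lipoprotein lipase, which lay at 8.52, 8.89 and 9.55 in exposed hens, against 9.96, 9.29, 9.57 and 10.05 in controls (-0.79, SE 0.20). It kept the threshold whichever array was left out, and it was at -0.91 with the tissue score in the model. The phospholipase PLB1 was at -0.95 (SE 0.37), the sterol transporter subunit ABCG8 at -0.29 (SE 0.10) at a dim level of 4.77 in exposed and 5.06 in control hens, and the fatty acid binding protein FABP2, named after its value was seen, at -0.83 (SE 0.35). FABP2 averaged 3.84 in exposed hens, no higher than the random-sequence control, against 3.93, 5.21, 5.70 and 3.84 in controls. It was at -0.16 with the tissue score in the model. Of 54 antioxidant and haem genes NUDT1 and HMOX1 passed. Of 42 steroid and prostaglandin genes HSD17B2, which inactivates oestradiol, was higher at 0.40 (SE 0.16).

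In the list of growth factor genes CYR61, given above, had the smallest p, followed by CCN3 and FGF13. CCN3 (NOV on the array), a matricellular relative of CYR61, lay at 9.81, 11.28 and 12.91 in exposed hens, against 9.43, 9.27, 8.33 and 10.56 in controls (1.84, SE 0.52), mated replicates 1 and 3 lying below the highest control. FGF13, an intracellular member of the fibroblast growth factor family, lay at 6.62, 7.30 and 8.46 in exposed hens, against 8.57, 7.66, 10.23 and 8.55 in controls (-1.43, SE 0.47). Both kept the threshold whichever array was left out. With the tissue score in the model CCN3 was at 0.86 and passed, while FGF13 was at -0.80 and did not. Of the 69 growth factor genes 3 were higher and 4 lower, the receptor tyrosine kinase MET at 0.83 (SE 0.30) being named after its value was seen.

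Of 58 cell cycle genes 2 passed (3.45%), both higher. PLK4, the kinase that starts centriole duplication, lay at 8.88, 9.18 and 9.78 in exposed hens, against 8.62, 8.64, 8.20 and 8.96 in controls (0.70, SE 0.18), and CCNE2, a cyclin of the entry into DNA synthesis, was at 0.84 (SE 0.28). Both kept the threshold without mated replicate 4 and with the tissue score in the model, where they were at 0.61 and 0.97. The median of the list was 0.16, and 0.01 without mated replicate 4, which lay 0.90 above the mean of the arrays. Of 48 immediate early and heat shock genes 3 were higher and 2 lower, among them the proto-oncogene MYC at 0.50 (SE 0.19), the nuclear receptor NR4A2 at 0.41 (SE 0.16) and the chaperone HSPA13 (STCH on the array) at -0.49 (SE 0.16).

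Of 48 HOX, T-box and other positional factors 3 were lower and 0 higher. TBX4, a factor of limb and lung development in vertebrates, lay at 6.45, 7.09 and 8.05 in exposed hens, against 8.61, 7.55, 8.23 and 8.21 in controls (-1.01, SE 0.28), and its 3 further features were at 0.15, -0.37 and -1.01. HOXD12 was at -1.10 (SE 0.47) and HOXB9 at -0.59 (SE 0.27), and they lost the threshold in 8 and 7 of the 12 fits that left out an array. Of 50 Wnt and Notch genes 2 were higher and 3 lower, with the Wnt co-receptors LRP5 at -0.30 (SE 0.10) and LRP6 at -0.42 (SE 0.16) and the ligand WNT2B at 0.57 (SE 0.22).

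In the lists that follow the share of members past the threshold was close to or below the 3.14% of all genes. Several lists above were also close to it: antioxidant and haem (3.70%), antigen presentation (3.57%), cell cycle (3.45%), TGF-beta and BMP (3.1%) and columnar epithelium (3.03%). Below it were Toll-like receptor and NF-kB (2.94%), complement and coagulation (2.56%), steroid and prostaglandin (2.38%) and neuropeptide genes (1.41%). Oxidative phosphorylation genes had a median of -0.15, with 2 of 47 above 0, and 1 passed, the ATP synthase subunit ATP5J at -0.46 (SE 0.18). Cytochrome c, CYCS, was at -0.40 (SE 0.18). Without control replicate 3 the list median was -0.07, and with the tissue score in the model it was 0.13, so the direction turned. Leaving out mated replicate 3 gave 9 members lower past the threshold and 0 higher. Axonemal and ciliary genes had 48 of 55 members above 0, a median of 0.14 and 1 member past the threshold, LRRC23 at 0.42 (SE 0.19). Mated replicate 3 lay at -0.55 on this list, against -0.007 to 0.29 on the other exposed arrays. The controls ran from -0.53 in replicate 3 to 0.30 in replicate 1, which was above every exposed array. The list median was 0.03 without control replicate 3 and -0.05 with the tissue score in the model. Leaving out mated replicate 3 gave 13 members higher past the threshold and 1 lower. Endothelial markers had a median of -0.21 over 31 genes with ANGPT2, an antagonist of vessel stabilisation, at -0.35 (SE 0.15), a share of 3.23%. That median was -0.07 both without control replicate 3 and with the tissue score in the model. Nerve and glia markers had a median of 0.22 over 35 genes, which was 0.08 without control replicate 3, 0.12 without mated replicate 4 and 0.0008 with the tissue score in the model. Their 1 member past the threshold was lower, the neuronal nitric oxide synthase NOS1 at -1.94 (SE 0.80). Leaving out mated replicate 3 gave 8 nerve and glia members higher past the threshold and 1 lower. NOS1 was 11.06 in mated replicate 3 and 9.95 in SF replicate 1, and between 6.52 and 8.79 on the other exposed arrays, against 9.51, 10.44, 10.84 and 9.49 in controls.

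Smooth muscle, erythrocyte, ribosomal protein, circadian clock and testis lists had 0 members past the unadjusted limma threshold among 37, 27, 56, 18 and 43 measured genes. Testis and sperm transcripts, which sperm could have carried into mated hens, had a pooled median of 0.06, with 0.09 in mated and 0.11 in SF-infused hens, and 11 of the 43 lay within 1 of the random-sequence control.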

How the data were processed

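The authors deposited linear intensity values of 12 single-colour NimbleGen arrays, made in the array maker's software by robust multichip averaging (RMA, which corrects background, quantile-normalizes the arrays and merges the probes of a feature), and 37245 of the 37374 features had 3 probes. RMA and limma are the tools in the submitters' processing notes. For the design's build and annotation nothing is stated, so coordinates are left out. The series table held the same intensities for 37364 features. Symbols were read from the feature names and updated for 4032 features by accession (RefSeq genes, GRCg7b), 7583 others carried a current symbol and 10365 kept the name of the file, while 15394 expressed sequence tags had no name.

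Deposited intensities were converted to log2 with no pseudocount, and all 12 arrays were fitted in limma 3.58.1 (R 4.3.3) with 1 mean per group and empirical Bayes moderation. The contrast was the mean of mated and SF less control, tested two-sided, with Benjamini-Hochberg adjustment over all features. The procedure was tested on simulated data. Mated and SF share their controls, so their differences from control are given only side by side. Named genes were characterised genes past the unadjusted threshold with groups that did not overlap and a level at least 1 above the random control (up to 12 in each direction), the 5 largest mated versus SF differences each way among genes that passed, and up to 3 members of each list with the smallest p. Some genes that the rule names are not reported here. Genes that were exceptions are said to have been named after their values were seen. The comparison, the 36 lists and their members were chosen with earlier results of these data known. The labels name replicates, and the study describes 4 separate hens in each group. The p-values therefore measure the spread between hens handled on 1 slide, and the number of arrays limits the precision. Alternatives were 1 mean for all exposed arrays, median centring, quantile normalization over features, 2 filters on dim features, a replicate block, array weights, trended and robust moderation, the tissue score as a covariate, the series table and leaving out each array.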

Additional observations from a re-analysis of the deposited data

Results flagged for a closer look

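An array was set apart where its gap to the nearest array of its group was large for the range of that group, which chance gives in about 1 of 20 groups. Of 222 groups of values examined (the exposed and the control arrays of each gene named here and each list), 17 had such an array. Mated replicate 4 was highest for cytokines and chemokines at 0.88, Toll-like receptor and NF-kB genes at 0.78, T lymphocytes at 1.14, macrophages and heterophils at 0.87 and cell cycle genes at 0.90, relative to the mean of the 12 arrays. Mated replicate 3 was lowest for axonemal and ciliary genes at -0.55, for LRRC23 at a level of 9.52 and for SLC4A3 at 10.58, and highest for ATP5J at 8.30 and LRP6 at 10.86. Among controls, replicate 1 was at 10.73 for GART and 12.17 for YIPF5, replicate 4 at 11.84 for HEXDC, 7.83 for IRF9 and 0.19 for TGF-beta and BMP genes, replicate 3 at -0.28 for cytokines and replicate 2 at 0.0874 for B lymphocyte markers. Each of these values is relative to the other arrays of its group, and their causes were not tested.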

How the results depend on the processing

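The number of features past the adjusted threshold was 0 in each alternative except the tissue score as a covariate, where it was 1, LOC429492, at 1.58 with the score and -0.17 without it. At the unadjusted threshold the 1380 features were 918 without the dimmest 25% of features, 588 at or above the median level, 3145 with array weights and 2376 with the tissue score, and 983 to 3333 when 1 array was left out, the highest without mated replicate 3. The 840 higher ones were 371 at or above the median level, 1798 with array weights, 1601 with the tissue score and 587 to 1981 leaving out an array. The 540 lower ones were 357, 217 and 1347 without the dimmest 25%, at or above the median level and with array weights, and 337 to 1352 leaving out an array (337 without mated replicate 4, 816 without control replicate 4, 1352 without mated replicate 3). The 85 features that did not overlap were 51 and 37 under the 2 filters, and 104 to 437 leaving out an array, the highest without control replicate 4 and next 385 without mated replicate 3. Smaller groups overlap less by construction. The 197 features past both contrasts were 97 and 62 under the filters, 376 with array weights, 444 with the tissue score and 114 to 446 leaving out an array (446 without SF replicate 1, 114 without mated replicate 2). The 339 genes were 184 at or above the median level, 914 with array weights, 561 with the tissue score, 344 with the mean of a gene's features and 238 to 985 leaving out an array. The filters test fewer features; the other causes were not tested. Of the 1380 features 344 were among the 2376 passing with the tissue score, 1162 among the 3145 with array weights and 1203 among the 3333 without mated replicate 3. Median centring, quantile normalization, the series table, a single mean for the exposed arrays and trended moderation left 1315 to 1379.

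With the replicate block 1664 features passed, 1072 higher and 592 lower, as did 426 genes. The labels do not say whether equal replicate numbers pair hens of different groups. The 12 same-number pairs had correlations of -0.36 to 0.62 and 4 were above 0.1. Pairs with different numbers reached 0.53, so the correlations cannot decide it. Of the genes whose groups did not overlap, KCNJ13 and PPP1CB lost the threshold with the block. Among list members that did not pass, XBP1, TMPRSS2, TENP and RPL8 turned direction with the tissue score, to 0.0053, 0.12, 0.0129 and 0.0382. The dimmest 25% of features held 5.57% past the unadjusted threshold and the brightest 25% held 1.88%. The cause of this fall with mean level was not tested. Members of the cytokine, host defence, neuropeptide and testis lists had median levels within the dimmest 25%.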

Other observations

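Several of the largest differences belonged to genes outside the lists, and they were named after their values were seen. LYPD2, a membrane-anchored protein of the Ly6 family, lay at 10.66, 13.05 and 13.97 (lowest, median and highest) in exposed hens, against 11.08, 9.30, 8.74 and 13.03 in controls, a difference of 2.31 (SE 0.80). FAM83B was at 2.20 (SE 0.81), the calcium-dependent protease CAPN9 of the digestive tract at 1.85 (SE 0.73) and the acyltransferase MOGAT2 at 1.68 (SE 0.74). Control replicate 4 lay near or above the exposed median for LYPD2, FAM83B and MOGAT2, as it did for TP63. Lower were RASD1, a small GTPase induced by glucocorticoids, at -1.67 (SE 0.73), the secreted glycoprotein STC2 at -1.53 (SE 0.68), the glutamate receptor subunit GRIK1 at -1.33 (SE 0.54) and DIO2, which activates thyroid hormone, at -1.27 (SE 0.54). DIO2 lay at 7.53, 9.50 and 10.54 in exposed hens, against 10.54, 10.57, 11.74 and 9.44 in controls. With the tissue score in the model LYPD2 was at 0.76, RASD1 at -0.26, STC2 at -0.11 and DIO2 at -0.65, and none of these 8 genes passed the unadjusted limma threshold there.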
